A study of Equus caballus with 4 samples.

Results

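S100A7, DEFB4B, LTF and C14H5orf46 are horse genes for antimicrobial proteins of the skin surface, and their transcripts were compared between equine sarcoids and skin of the same animals. By RefSeq name the array held 13 probes for the 4 genes among 43603 probes: 5 for S100A7, 2 for DEFB4B, 1 for LTF and 5 for C14H5orf46. Every probe whose RefSeq transcript belongs to one of the genes was taken. The genes themselves were chosen by their measured log2 ratios of sarcoid over skin on these arrays, so their ratios and levels below are a description, with no test. The tested table held 19607 targets (genes or transcripts), of which 845 carried a gene symbol. Genes were found by symbol only, and 2332 probes could be given 1. A gene counted as not measured may thus still have probes on the array under another name. No chromosome positions are given, since the array was designed on another genome build than the gene table used here.

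A sarcoid is a locally invasive, fibroblast-rich skin tumour of horses. Sarcoid tissue and skin distant from the tumour were taken from 4 horses, with no treatment given in the labels. Each horse had 1 two-colour array, with its sarcoid RNA labelled with Cy3 and its skin RNA labelled with Cy5, and 0 arrays carried the opposite dye order. Any effect of the dye on a gene is thus contained in its ratio. Breed, age and the site of the skin sample were not analysed here.

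Antimicrobial proteins are secreted onto epithelial surfaces, where they bind and damage microbes or keep metal ions from them. In skin they come from keratinocytes, from sweat and sebaceous glands and from neutrophils that enter the tissue. Several of their genes are switched on in keratinocytes by cytokines such as interleukin 1 and interleukin 17 and by Toll-like receptors. S100A7 (psoriasin) is a zinc-binding protein of differentiating keratinocytes. DEFB4B belongs to the beta-defensins, short cationic peptides that keratinocytes make when stimulated. LTF (lactoferrin) binds iron and is stored in neutrophil granules and released by glands. C14H5orf46 is the horse counterpart of human C5orf46, which is known in human as a small protein secreted by skin and salivary gland with antimicrobial activity.

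All 13 probes were well above background in both channels on all 4 arrays, and 0 of their spots were saturated or marked as outliers. Over all probes, 67.2% to 78.4% were well above background in a sarcoid channel and 74.8% to 80.7% in a skin channel. Of the measured keratinocyte markers other than S100A7, 3 of 3 were called lower in the sarcoids by limma, against 9.90% of all targets. Of the measured fibroblast markers, 9 of 9 were called higher, against 5.84%. These lists were chosen with earlier results of these data known, so the counts do not check the tissue labels. The descriptions of 3 of the 4 samples also mention embryonic stem cells, against every other label, and were not used. Intensities are given on the normalized linear scale of the array, for comparison within 1 probe and not between probes. A summed intensity of a list is set mostly by its brightest probes and compares only the same probes between tissues. Each horse had its own array and each tissue its own dye. Level differences between horses cannot be told apart from array differences, nor those between tissues from dye differences. Unless stated otherwise, a gene is shown by its probe of highest mean intensity.

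S100A7 had normalized intensities of 1706, 416, 353 and 2255 in the sarcoids of horses 1 to 4, against 67114, 10626, 11442 and 102922 in their skin. The sarcoids lay below the skin in every horse, and the brightest sarcoid was dimmer than the dimmest skin. The share of all targets with such a separation was not analysed here, and the genes were chosen by their ratios. The log2 ratio of sarcoid over skin was -5.30, -4.67, -5.02 and -5.51, with a mean of -5.12 ± 0.36 (SD, n = 4), a 34.9-fold lower signal. The fold ran from 25.5 in horse 2 to 45.6 in horse 4. In bulk tissue, fewer cells of a type and less RNA per cell cannot be told apart.

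The 5 S100A7 probes gave mean log2 ratios between -5.40 and -4.94, and within a horse they lay at most 0.49 apart. Every probe placed horse 4 lowest and horse 2 highest in its ratio. Of all 19607 targets, 42 had a lower mean log2 ratio than S100A7. S100 genes are similar in sequence, and signal from relatives of S100A7 on these probes was not tested.

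C14H5orf46 had normalized intensities of 257, 154, 108 and 256 in the sarcoids of horses 1 to 4, against 1842, 1934, 1585 and 3387 in their skin. The tissues did not overlap. As for S100A7, the gene was chosen by its ratios, and the share of all targets with such a separation was not analysed here. The log2 ratio was -2.84, -3.65, -3.87 and -3.73, with a mean of -3.52 ± 0.46 (SD, n = 4), which is 11.5-fold lower. Horse 1 had the smallest difference, 7.18-fold, and horse 3 the largest, 14.6-fold. The 5 probes gave means between -3.52 and -3.20 and lay at most 0.41 apart in a horse, and all of them placed horse 1 nearest to 0.

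DEFB4B had normalized intensities of 2139, 588, 80 and 414 in the sarcoids of horses 1 to 4, against 3142, 2223, 1404 and 5608 in their skin. The tissues overlapped across horses, since the sarcoid of horse 1 was brighter than the skin of horse 3. The log2 ratio was -0.55, -1.92, -4.13 and -3.76, with a mean of -2.59 ± 1.67 (SD, n = 4). That corresponds to 1.47-fold lower in horse 1 and 17.6-fold lower in horse 3, so the direction was shared by 4 of 4 horses and the size was not.

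The other DEFB4B probe gave the same order of the sarcoids. Its normalized intensities were 808, 278, 82 and 257 in the sarcoids of horses 1 to 4, against 1160, 849, 571 and 2035 in their skin. Its log2 ratios were -0.52, -1.61, -2.80 and -2.98, with a mean of -1.98 ± 1.15 (SD, n = 4). The probes lay closest in horse 1 and farthest apart, by 1.33, in horse 3, where the sarcoid spots were near the bottom of the scale. The offset of 50 that is part of every corrected intensity makes ratios of such dim spots smaller.

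LTF had normalized intensities of 188, 93, 99 and 2185 in the sarcoids of horses 1 to 4, against 1165, 323, 314 and 22379 in their skin. Horse 4 was the highest in both tissues, and its sarcoid was brighter than the skin of the other horses. The log2 ratio was -2.63, -1.80, -1.66 and -3.36, with a mean of -2.36 ± 0.79 (SD, n = 4), which is 5.15-fold lower. The smallest difference was 3.17-fold in horse 3 and the largest 10.2-fold in horse 4. Sarcoid spots of horses 2 and 3, at 93 and 99, were near the bottom of the scale, where the offset makes ratios smaller. With the scanner's processed signals the LTF log2 ratios were -3.12, -3.34, -2.36 and -3.42 in horses 1 to 4. With the background model fitted to all spots they were -2.63, -0.35, -0.10 and -3.36. The sizes of the LTF differences in horses 2 and 3 thus changed with the processing. LTF was measured by 1 probe, so no second probe checks its values.

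**Figure D1:**
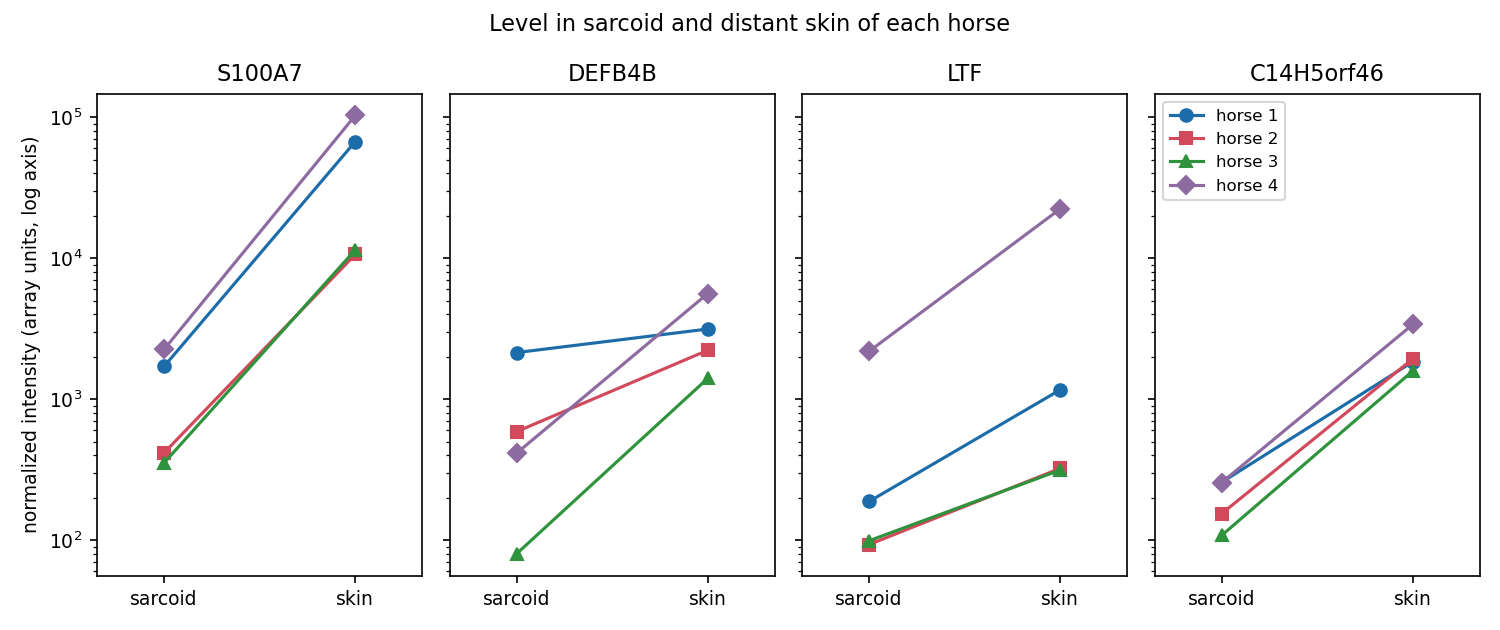
Normalized intensity (array units, log axis) of the leading probe of each gene in the sarcoid (left) and distant skin (right) of each horse; lines join the tissues of 1 horse, and panels should not be compared in height because they show different probes. All lines climb to the right, and the S100A7 and C14H5orf46 panels have no overlap between tissues. The genes were chosen by their ratios, and the share of all targets without overlap was not analysed here. Horse 4 stands apart in both tissues for LTF, with 2185 in sarcoid and 22379 in skin.

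**Figure D2:**
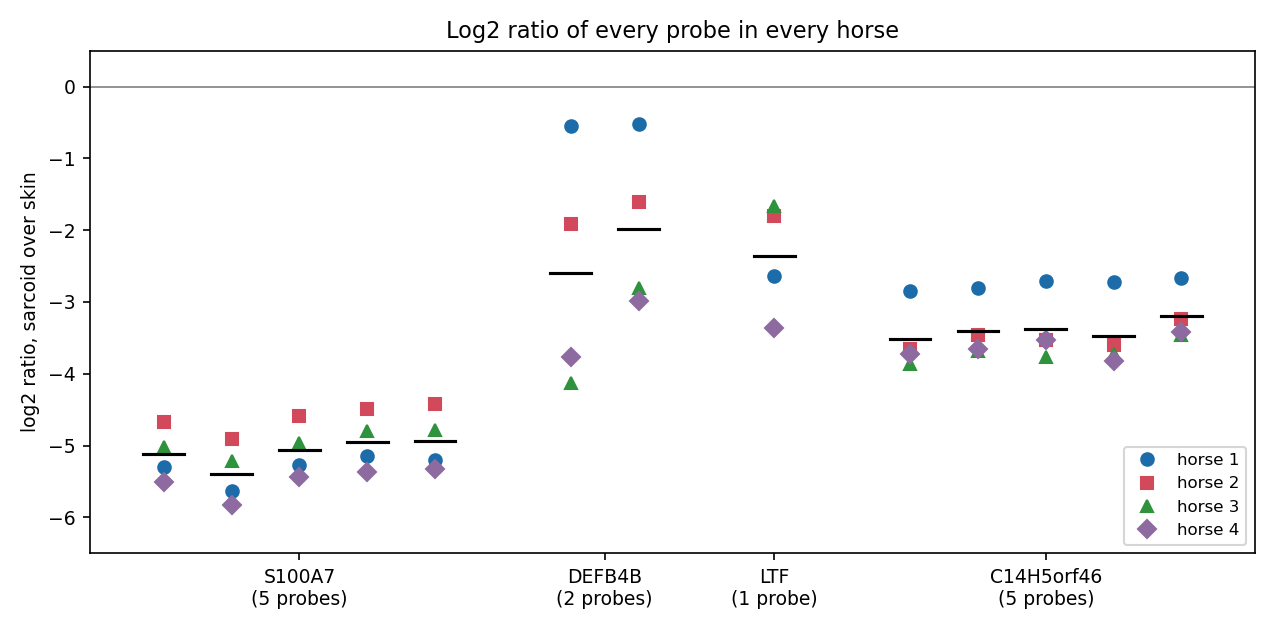
Log2 ratio of sarcoid over skin for each of the 13 probes (points, 1 per horse; black bars, mean of 4 horses). Probes of a gene lie at similar heights and keep the order of the horses nearly unchanged, and the horses are spread widest for DEFB4B, between -0.55 and -4.13 on its leading probe.

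In limma's fit over all targets, 9.90% of the 19607 targets were called lower in the sarcoids at an adjusted p under 0.05, and 5.84% were called higher. The calls held 3 of the 4 genes (S100A7, LTF and C14H5orf46) among the lower targets and none among the higher ones. DEFB4B, with the widest spread of the 4, was not called. Since the genes were picked for these ratios, the count says nothing beyond them. Of all targets, 42 had a lower mean log2 ratio than S100A7, 188 than C14H5orf46, 386 than DEFB4B and 461 than LTF. With the background model fitted to all spots, outlier spots included, 0.750% of the targets were called lower and 0 of the 4 genes, and the mean log2 ratio of S100A7 was -4.26.

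The direction was kept in every horse under that setting too, but the sizes of horses 2 and 3 shrank. S100A7 stood at -3.45 in horse 2 and -2.76 in horse 3, and at -5.30 and -5.51 in horses 1 and 4. C14H5orf46 stood at -1.66 and -0.67 in horses 2 and 3, and LTF at -0.35 and -0.10. DEFB4B stood at -0.60 in horse 3, against -4.13 with the outlier spots left out first. The DEFB4B value of horse 3 thus changed with this background setting, while that of horse 4, -3.76, did not move. With no background correction these values were -3.945 in horse 3 and -3.735 in horse 4. With the scanner's processed signals they were -6.03 and -3.86.

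**Figure D3:**
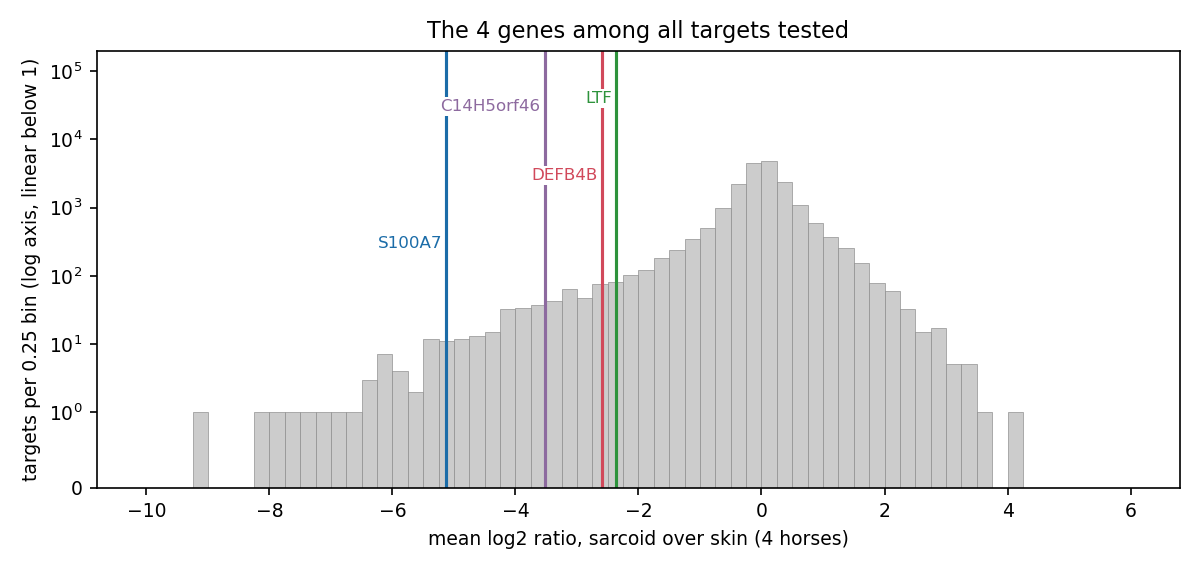
Number of targets per bin of mean log2 ratio of sarcoid over skin (grey bars, log axis that is linear below 1), with vertical lines at the means of S100A7 (-5.12), C14H5orf46 (-3.52), DEFB4B (-2.59) and LTF (-2.36). The 4 genes lie in the left tail of the 19607 targets, S100A7 farthest out.

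The genes differed in how their levels varied between horses. In skin, the brightest horse exceeded the dimmest 71.2-fold for LTF, 9.69-fold for S100A7, 4.00-fold for DEFB4B and 2.14-fold for C14H5orf46. The median target well above background in skin spanned 1.39-fold. Of 17885 such targets, 10 spanned more than LTF (0.0559%), 102 more than S100A7 (0.57%), 366 more than DEFB4B (2.05%) and 2045 more than C14H5orf46 (11.4%). In the sarcoids the span was 26.7-fold for DEFB4B, 23.6-fold for LTF, 6.38-fold for S100A7 and 2.37-fold for C14H5orf46. There the median target spanned 1.82-fold, and 88 of 15564 targets (0.565%) spanned more than DEFB4B and 100 (0.643%) more than LTF. LTF spanned most of the 4 genes among the skin samples under each scaling tried. Among the tumours the order changed with the scaling: with no scaling between arrays LTF spanned 26.1-fold and DEFB4B 22.1-fold. With the background fitted to all spots the sarcoid spans were 7.70-fold for LTF, 4.83-fold for DEFB4B, 2.65-fold for C14H5orf46 and 2.37-fold for S100A7.

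S100A7 and LTF shared the order of horses in skin: horse 4 was highest and horse 1 next, with horses 2 and 3 lowest and close together. Horses 1 and 4 were also the higher ones for S100A7 in the sarcoids, at 1706 and 2255. The high skin samples and the high tumours thus came from the same animals and the same arrays. The keratinocyte and gland markers measured did not share 1 order of horses in skin. SPINK9, an epidermal protease inhibitor, spanned 12.3-fold, with 21249, 1726, 2528 and 15530 in the skin of horses 1 to 4. SPINK7, of the same family, had 1131, 1164, 1140 and 2026. Both were higher in horse 4 than in horses 2 and 3, as were S100A7 and LTF. NSMCE2, which is on none of the lists, was so too, and the share of all targets with this order was not analysed here. KRT15, a keratin of basal keratinocytes, had 33841, 26556, 32738 and 16521 in the skin of horses 1 to 4. LATH, which encodes latherin, the surfactant protein of horse sweat, had 405312, 356955, 292332 and 270361. KRT15 and LATH were lowest in horse 4.

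A search for named targets with the most similar pattern of levels, added after the data had been seen, used the root mean square difference of log2 levels after each gene was centred on its mean over the 4 horses. In skin, S100A7 was nearest to SPINK9 (difference 0.42). MMP3, a matrix metalloproteinase, and CRISP3, a secreted protein of exocrine glands and neutrophil granules, came next (0.68 and 0.85). LTF was nearest to S100A7 itself (1.40), then to CRISP3 (1.45) and SPINK9 (1.74). CRISP3 had 1062, 876, 376 and 3829 in skin, highest in horse 4 like LTF. DEFB4B was nearest to POR, TMEM167A and HBB (0.31, 0.321 and 0.325), and C14H5orf46 to NSMCE2, GTF2H1 and TMEM167A (0.07, 0.08 and 0.09). These likenesses are over 4 horses and 725 named targets, and describe the samples only.

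In the sarcoids, S100A7 was nearest to CXCL9, IL15 and CXCL10 (0.26, 0.39 and 0.50 over 640 named targets). CXCL9, a chemokine induced by interferon gamma, had 510, 121, 110 and 452 in the sarcoids of horses 1 to 4. DEFB4B was nearest to CCL2, a monocyte chemokine (0.49), which had 5263, 1500, 459 and 1455. Both orders run alike, with horse 1 highest and horse 3 lowest. With the background fitted to all spots DEFB4B had 2344, 994, 816 and 486 in these sarcoids, lowest in horse 4. LTF was nearest to ILT11A, MMP9 and TLR8 (0.84, 0.84 and 0.85). MMP9, a gelatinase of neutrophil granules, had 97, 120, 106 and 657, and TLR8, a receptor of myeloid cells, had 237, 236, 133 and 1064, all highest in horse 4. C14H5orf46 was nearest to ITGAX, PAM and RAI2 (0.14, 0.15 and 0.19). With the background fitted to all spots C14H5orf46 had 358.7, 700.3, 879.7 and 331.5 in the sarcoids of horses 1 to 4, another order. The searches for likeness were not repeated under that setting.

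By their log2 ratios rather than their levels, the genes fell beside different neighbours among 790 named targets. S100A7 was most like KRT15 (root mean square difference 0.26 over 4 arrays), SPINK9 (0.69) and IL1R2 (0.79). KRT15 stood at -5.12 ± 0.11 (SD, n = 4). C14H5orf46 was most like SPINK7 (0.42), PRNP, the prion protein gene (0.51), and CYP3A89, a cytochrome P450 (0.62). SPINK7 stood at -3.59 ± 0.06 (SD, n = 4) and so varied less between horses than C14H5orf46.

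DEFB4B was most like C1H15orf48 (0.68), SERPINB10 (1.00) and COMP (1.03). C1H15orf48 had log2 ratios of -1.22, -2.35, -4.71 and -2.81 in horses 1 to 4, again nearest to 0 in horse 1 and farthest in horse 3. LTF was most like CYP19A1, the aromatase gene (0.54), AOX4, an aldehyde oxidase (0.58), and HSPA1B, a heat shock protein gene (0.60). By log2 ratio, no keratinocyte or gland marker of the lists was among the 3 nearest targets of DEFB4B or LTF. By skin level, S100A7 and SPINK9 of the keratinocyte list were among the 3 nearest targets of LTF.

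Of 71 listed genes for antimicrobial proteins, 14 were measured by name, the 4 members included. The others were not found by symbol among the tested targets, which does not mean that the array lacks them. Of the other 10, 2 were lower in the sarcoids, 0 were higher and 8 did not pass, against 9.90% of all targets lower and 5.84% higher. Their median log2 ratio was -0.35, and that of all targets 0.00. SPINK9 was at -5.44 ± 1.01 (limma adjusted p = 0.00117) and was well above background in only 2 of 4 sarcoids. It is on the keratinocyte list too and is counted again there. CRISP3 had 87, 102, 81 and 177 in the sarcoids of horses 1 to 4, below all skin values, and was at -3.34 ± 0.93 (limma adjusted p = 0.00468). With the background fitted to all spots neither passed (limma adjusted p = 0.217 for SPINK9 and 0.27 for CRISP3).

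Among the 8 that did not pass, the brightest showed different behaviour between horses. RNASE4, a secreted ribonuclease, was at 0.62 ± 1.15 (limma adjusted p = 0.403). ADM, the vasodilator peptide adrenomedullin that also acts on bacteria, had log2 ratios of -1.59, 0.88, -3.62 and 2.51 in horses 1 to 4, that is higher in the sarcoid of horses 2 and 4 and lower in that of horses 1 and 3. TF (transferrin), an iron-binding relative of LTF, had 1373, 1183, 101 and 1087 in the sarcoids of horses 1 to 4, against 1465, 1712, 791 and 2252 in their skin. Its mean log2 ratio was -1.16 ± 1.27 (limma adjusted p = 0.175). As for DEFB4B, the sarcoid of horse 3 was the dimmest, which for DEFB4B did not hold with the background fitted to all spots. GNLY, a pore-forming protein of cytotoxic lymphocytes, was at -0.43 ± 0.38 (limma adjusted p = 0.168).

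The signals and receptors that act upstream of antimicrobial genes were measured for 15 of 45 listed members. Of these, 2 were lower, 1 was higher and 12 did not pass, with a median log2 ratio of -0.21, against 9.90% of all targets lower and 5.84% higher. IL1R2, the decoy receptor that captures interleukin 1, had 492, 329, 405 and 465 in the sarcoids of horses 1 to 4, against 18609, 16442, 25390 and 12278 in their skin. It was at -5.39 ± 0.54 (limma adjusted p = 0.000278), and it passed with the background fitted to all spots as well (0.0177).

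IL1RN, the interleukin 1 receptor antagonist, was at -2.20 ± 0.44 (limma adjusted p = 0.00243), although its 8 probes had means between -2.20 and -0.14. TLR1, a receptor for bacterial lipopeptides, had 746, 751, 555 and 1561 in the sarcoids of horses 1 to 4, against 192, 187, 251 and 187 in their skin. It was at 2.04 ± 0.78 (limma adjusted p = 0.0131), with an adjusted p of 0.0591 when horse 1 was left out, and its 6 probes had means between 0.50 and 2.04. With the background fitted to all spots neither IL1RN (limma adjusted p = 0.188) nor TLR1 (0.253) passed.

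The brightest of the 12 that did not pass were CD14, TNF, TLR4 and TLR2. CD14, a receptor for lipopolysaccharide on myeloid cells, was at 1.14 ± 1.11 (limma adjusted p = 0.141), higher in the sarcoids of horses 1, 2 and 4 and lower in that of horse 3. TNF, an inflammatory cytokine, was at -0.28 ± 0.71 (limma adjusted p = 0.559). The Toll-like receptors TLR4 and TLR2 were at -0.22 ± 1.37 and -0.21 ± 0.53 (limma adjusted p = 0.815 and 0.582). Genes for interleukin 17 and its receptors were listed but not analysed here.

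Most measured markers of keratinocytes and skin glands were lower in the sarcoids, against 9.90% of all targets. Of 44 listed keratinocyte markers 3 were measured besides S100A7, and 3 of 3 were lower, namely KRT15, SPINK7 and SPINK9 (limma adjusted p = 6.28e-05, 0.000135 and 0.00117). Their summed intensity was 753 to 1664 in the sarcoids, against 29447 to 56221 in the skin. Of 32 listed sweat and sebaceous gland markers 6 were measured besides LTF, and 5 of them were lower. LATH was at -6.33 ± 0.26 (limma adjusted p = 6.28e-05).

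HSD3B2, a steroid dehydrogenase, and SLC5A1, a sodium-glucose cotransporter, were also lower, at -4.32 ± 0.37 and -4.06 ± 0.16 (limma adjusted p = 0.000238 and 0.000135). The remaining lower gland genes were CA6, a secreted carbonic anhydrase, and CFTR, a chloride channel. They were at -3.53 ± 0.36 and -2.32 ± 0.61 (limma adjusted p = 0.000403 and 0.00467). CA12, another carbonic anhydrase, was at 0.06 ± 0.19 (limma adjusted p = 0.774). The gland sum was 4430 to 6018 in the sarcoids, against 282108 to 424369 in the skin. Without LATH, which made up most of it, the sum was 784 to 1445 in the sarcoids and 7321 to 19057 in the skin. Of the 9 keratinocyte and gland markers 8 were lower, with a median log2 ratio of -4.06, and 2 passed with the background fitted to all spots, KRT15 and LATH. The part of these cells in the ratios of the 4 genes was not tested.

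Neutrophils also hold LTF. Of 25 listed, 2 were measured besides LTF, and 0 of 2 were called by limma. ITGB2, the beta chain of leukocyte integrins, was at 0.89 ± 0.75 (limma adjusted p = 0.112) and MMP9 at -0.08 ± 0.51 (0.848). Their summed intensity, most of it from ITGB2, was 2185 to 3784 in the sarcoids, against 733 to 2300 in the skin. In horse 4, where LTF was highest, MMP9 was also highest in both tissues, at 657 in the sarcoid and 415 in the skin. ITGB2 was highest in horse 4 among the sarcoids, at 3127, but in horse 3 among the skin samples, at 2155, against 1556 in the skin of horse 4.

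Fibroblast markers lay on the other side of 0 from the 4 genes. All 9 measured of 19 listed were called higher in the sarcoids, against 5.84% of all targets. Their median log2 ratio was 2.22, and their summed intensity was 907983 to 1279753 in the sarcoids, against 152590 to 252648 in the skin. By leading probe, the largest differences were those of the matrix genes LUM, BGN, COL14A1 and SPARC. They were at 4.24 ± 1.16, 3.06 ± 0.61, 3.04 ± 0.98 and 2.99 ± 1.20 (limma adjusted p = 0.00423, 0.00193, 0.00734 and 0.0136). The 6 COL14A1 probes had means between 1.27 and 3.04. Those of LUM lay between 3.26 and 4.24 and those of SPARC between 2.53 and 2.99, and BGN had 1 probe. TBX15, COL5A2, DCN, VIM and FGF7 lay between 2.22 and 1.49. When single horses were left out, FGF7, TBX15 and SPARC each lost their call at least once, and the highest adjusted p was 0.0929 for FGF7, without horse 2. With the background fitted to all spots LUM, BGN and DCN passed and the other 6 did not, at limma adjusted p from 0.0636 for VIM to 0.264 for COL5A2.

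**Figure D4:**
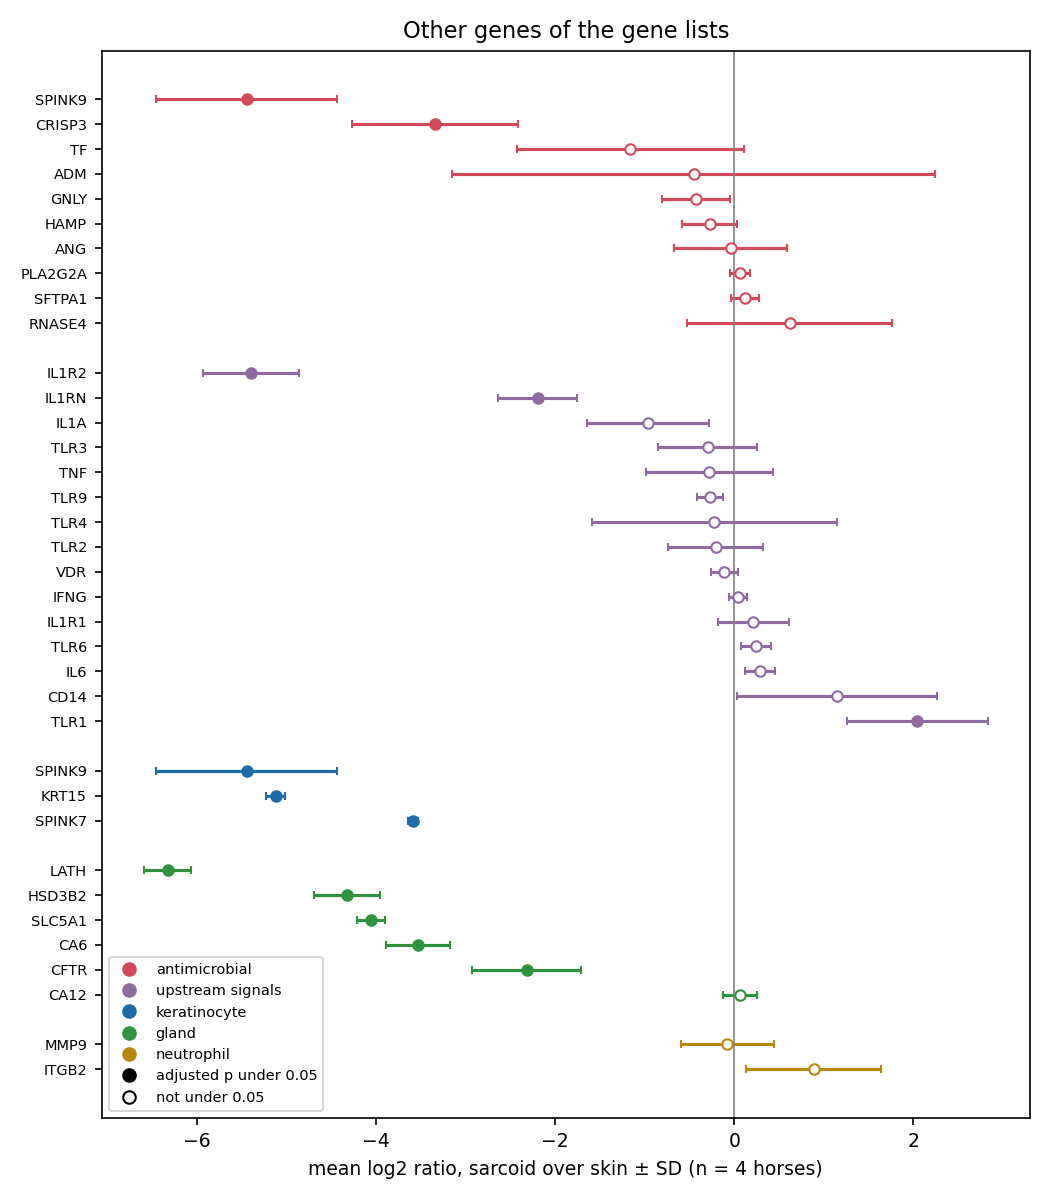
Mean log2 ratio of sarcoid over skin ± SD (n = 4 horses) for the measured genes of the antimicrobial, upstream, keratinocyte, gland and neutrophil lists, without the 4 members; filled points passed limma's adjusted p under 0.05 and open points did not. The keratinocyte genes and all gland genes but CA12 lie below -2, while most antimicrobial and upstream genes lie near 0.

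In the gene order of the horse RefSeq assembly TB-T2T, S100A7 lies within the S100 cluster, next to S100A6 and near S100A8 and S100A12. Of these neighbours, S100A6, a calcium-binding protein of many cell types, was measured, by 5 probes. Its normalized intensities were 17824, 16098, 16894 and 47735 in the sarcoids of horses 1 to 4, against 112921, 86607, 64163 and 97738 in their skin. It was lower in the sarcoid of every horse, at -2.01 ± 0.72 (limma adjusted p = 0.0111), and nearer to 0 than S100A7 in each of them. It did not pass with the background fitted to all spots (limma adjusted p = 0.065). C14H5orf46 lies between SPINK5 and SCGB3A2, in a cluster of SPINK protease inhibitor genes. DEFB4B lies near SPAG11B and genes of alpha-defensins, and LTF between RTP3 and CCRL2. S100A6 was the only one of the direct neighbours measured by name.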

How the data were processed

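Each of 4 arrays held the sarcoid (Cy3) and distant skin (Cy5) RNA of 1 horse, 100 ng amplified and labelled, per the labels. The deposited scanner files give median spot and background intensity per channel on a linear scale, with flags of 0 or 1, per the file headers, and the submitters' processing notes name Agilent Feature Extraction 11.5.1.1. The deposited value table equals the scanner's log10 ratio of Cy5 over Cy3, skin over sarcoid, with column medians of 0, -0.00262, -0.0118 and 0 for horses 1 to 4. It was turned here to sarcoid over skin.

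With limma 3.58.1 (R 4.3.3), outlier spots were left out, background was corrected by normexp with an offset of 50, and each array was loess-normalized, its control spots given no weight. The planned mean signal was replaced by the median, which the files hold. Channel levels were scaled between arrays on their average intensity (Aquantile), which leaves the ratios as they are. A probe was kept if 3 or more of the 4 arrays had it well above background in either channel, and a gene was shown by its probe of highest mean intensity. The mean ratio of each of 19607 targets was set against 0 by limma's moderated test (lmFit, eBayes; two-sided), and p-values were adjusted by Benjamini-Hochberg. The test was checked on simulated data. A horse RefSeq gene table named 2332 of the 3437 probes that carry a RefSeq accession.

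The 4 genes, the gene lists and the placing of the outlier step were chosen with earlier results of these data known. Named were the 4 genes, every called list gene, up to 4 others per list in order of intensity, and the 3 targets most like each gene. The labels call the horses biological replicates. Each p-value sets a mean ratio against the spread between these 4 pairs, which limma moderates over all targets. Alternatives covered background correction, offset, normalization, outlier spots, filter, probe choice, channel model, threshold and each horse left out.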

Additional observations from a re-analysis of the deposited data

Results flagged for a closer look

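Of 56 sets of 4 values examined, 6 held 1 horse farther from the others than Dixon's 95% critical value allows, and chance flags about 1 in 20 groups. LTF stood apart in horse 4 in both tissues. Its sarcoid normalized intensity was 2185 in horse 4, against 93 to 188 in the other sarcoids, and its skin normalized intensity was 22379 in horse 4, against 314 to 1165 in the skin of the others. Both tissues were high, so the LTF log2 ratio of that horse was not set apart in this way. HAMP, the gene for the iron-regulating peptide hepcidin, which is named here for this value alone, had a log2 ratio of -0.74 in horse 2, against -0.16 to -0.08 in the others. Among the fibroblast markers, VIM stood at 2.29 in horse 1, against 1.32 to 1.39 in the others, and BGN at 3.98 in horse 1, against 2.67 to 2.85. SPARC stood at 1.21 in horse 4, against 3.36 to 3.74.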

How the results depend on the processing

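The mean log2 ratio of each of the 4 genes was below 0 under each alternative background correction, normalization, filter and probe choice tried and without each horse in turn; it was not recomputed with the channels as separate samples. With the background fitted to all spots, and likewise with outlier spots kept, it was -4.26 for S100A7 and -2.22 for C14H5orf46. With the scanner's processed signals, and likewise with the value table, C14H5orf46 stood at -4.12. In both all-spot settings 0 of the 4 genes were called lower, as were 0 of the 2 listed antimicrobial genes and 2 of the 8 listed keratinocyte and gland genes, and of 21 called list genes 6 were called with the background fitted to all spots. DEFB4B was called with an offset of 10, the processed signals, the value table, median centring, the mean of its probes, the spot correlation as replicate block or without horse 1. LTF was not called with the channels as separate samples, with or without a replicate block.

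Targets called lower numbered 147 with the background fitted to all spots, 147 with outlier spots kept, 864 at an adjusted p under 0.01 and 1077 to 1415 when each horse was left out. Targets called higher numbered 93, 94, 253 and 389 to 820 under these settings, 1878 with processed signals, 1876 with the value table and 614 with median centring, against 1146. Lower calls made up 62.9% of all calls, against 51.9% with processed signals or the value table, 81.3% with median centring, 77.4% at the lower threshold and 73.5% without horse 1. With the channels as separate samples, 1790 targets were lower without the replicate block and 2520 with it.

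With processed signals the span over the sarcoids was 124-fold for DEFB4B, 79.8-fold for LTF and 4.26-fold for C14H5orf46. Without normalization the span over the skin samples was 118-fold for LTF and 3.39-fold for C14H5orf46. Precision is limited by there being 4 arrays.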
